A study of Rattus norvegicus with 9 samples.

Results

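The CXC chemokines are small secreted or membrane-bound proteins that guide the migration of leukocytes and some other cells. Expression of 10 of them (Cxcl1, Cxcl2, Cxcl3, Cxcl9, Cxcl10, Cxcl11, Cxcl12, Cxcl13, Cxcl14 and Cxcl16) was followed in rat lung fibroblasts on postnatal days 2, 7 and 21. These days lie before, during and after secondary septation, the formation of the ridges that divide the air spaces into alveoli. The genes were taken by symbol: a probe set, the group of array probes for a transcript, was used where its only symbol in the platform annotation was one of these names. That gave 18 probe sets for the 10 genes, of 31042 probe sets and 14217 genes tested. The brightest probe set by its mean over the 9 arrays represented a gene.

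Each day had 3 samples, each a pool of lung cells of a separate litter, from 5 pups on day 2 and from 4 pups on days 7 and 21. The labels name no treatment of the pups, and their strain and sex are not stated there. Lung tissue was dispersed with trypsin and collagenase, and the cells that stuck to plastic within 45 min were scraped off for RNA and hybridised to 1 single-colour Affymetrix array per sample. Adherence is the only purification step that the labels name, so other adherent lung cells could be present.

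CXC chemokines share a pair of cysteines separated by 1 residue and act through G-protein-coupled receptors of the CXCR group. Members with the residues glutamate, leucine and arginine before this pair, here Cxcl1, Cxcl2 and Cxcl3, attract neutrophils through CXCR2 and are induced by interleukin 1, TNF and bacterial products through the transcription factor NF-kappaB. Cxcl9, Cxcl10 and Cxcl11 are induced by interferons and attract T and NK cells through CXCR3. Cxcl12 is made by mesenchymal and endothelial cells without induction and acts through CXCR4 and the scavenging receptor ACKR3, Cxcl13 attracts B cells through CXCR5, and Cxcl16 is a transmembrane protein that is shed by metalloproteases and binds CXCR6. In GRCr8, the rat assembly of the RefSeq tables used for names, Cxcl11, Cxcl10 and Cxcl9 are consecutive protein-coding genes on chromosome 14. Cxcl2 and Cxcl1 are likewise neighbours on that chromosome, with 1 predicted gene between Cxcl1 and Cxcl3.

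Promoter sequences are shown first, since the inducible members are known targets of NF-kappaB and of interferon signalling. Of the 10 genes, 9 had an entry in the RefSeq promoter table (GRCr8), and Cxcl3 did not. The 250 bases before the annotated gene start were searched on both strands for a kappaB-type motif (GGG, any 3 bases, then TTCC) and for an interferon element-type motif (GAAA, any 2 bases, then GAAA). The kappaB-type letters were found in 4 of the 9 windows, those of Cxcl1, Cxcl2, Cxcl10 and Cxcl11, and in 4.53% of the 33469 rat promoter windows searched. The interferon element-type letters were found in 1 of the 9, that of Cxcl10, and in 3.41% of all windows. Both motifs were chosen after these promoters were seen, so the counts beside the shares are a description and no test of enrichment. The windows of these 4 genes, and that of Cxcl12 as a member that moved the other way and held neither motif, are printed 5′ to 3′ on the strand of the gene. Capitals mark the matches on either strand. In Cxcl1 and Cxcl10, matches on the 2 strands overlap and share 1 run of capitals.
Cxcl1, chr14:17479322-17479571, minus strand: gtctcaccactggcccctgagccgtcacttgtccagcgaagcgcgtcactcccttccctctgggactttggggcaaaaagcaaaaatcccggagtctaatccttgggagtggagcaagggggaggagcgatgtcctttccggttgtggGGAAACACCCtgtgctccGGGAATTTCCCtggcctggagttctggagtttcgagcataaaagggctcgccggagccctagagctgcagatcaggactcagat
Cxcl2, chr14:17467256-17467505, minus strand: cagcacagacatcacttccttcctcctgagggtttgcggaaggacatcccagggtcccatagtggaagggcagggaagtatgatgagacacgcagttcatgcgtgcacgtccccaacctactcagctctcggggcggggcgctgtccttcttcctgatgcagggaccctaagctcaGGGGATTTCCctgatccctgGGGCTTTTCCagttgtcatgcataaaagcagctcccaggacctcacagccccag
Cxcl10, chr14:15988816-15989065, plus strand: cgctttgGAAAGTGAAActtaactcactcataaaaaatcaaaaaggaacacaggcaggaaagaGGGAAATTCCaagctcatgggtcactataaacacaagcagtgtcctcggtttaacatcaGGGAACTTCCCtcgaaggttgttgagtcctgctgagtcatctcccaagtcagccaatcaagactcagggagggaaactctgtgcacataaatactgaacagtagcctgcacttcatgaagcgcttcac
Cxcl11, chr14:15973478-15973727, plus strand: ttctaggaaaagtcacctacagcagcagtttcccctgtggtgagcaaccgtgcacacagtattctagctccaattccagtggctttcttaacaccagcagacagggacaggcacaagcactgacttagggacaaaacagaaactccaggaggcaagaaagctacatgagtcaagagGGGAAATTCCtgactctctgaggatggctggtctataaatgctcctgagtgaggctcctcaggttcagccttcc
Cxcl12, chr4:152060531-152060780, plus strand: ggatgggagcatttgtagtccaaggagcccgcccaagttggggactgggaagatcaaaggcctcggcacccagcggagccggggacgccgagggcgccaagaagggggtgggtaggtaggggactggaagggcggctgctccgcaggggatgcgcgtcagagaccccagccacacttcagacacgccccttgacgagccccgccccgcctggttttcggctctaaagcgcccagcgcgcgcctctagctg

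The kappaB-type matches of Cxcl1 began 102, 84 and 83 bases before the start and those of Cxcl2 began 74 and 54 bases before it. In Cxcl10 they began 187, 128 and 127 bases before the start, with the interferon element-type match 243 bases before it. Cxcl11 had a single match, 74 bases before the start. The windows of Cxcl9, Cxcl12, Cxcl13, Cxcl14 and Cxcl16 held neither set of letters. Of these genes, Cxcl9 and Cxcl16 were called higher at day 21 than at day 7, as were Cxcl1, Cxcl2, Cxcl10 and Cxcl11. A match describes the letters of the reference sequence, and binding of a factor was not measured here.

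**Figure D1:**
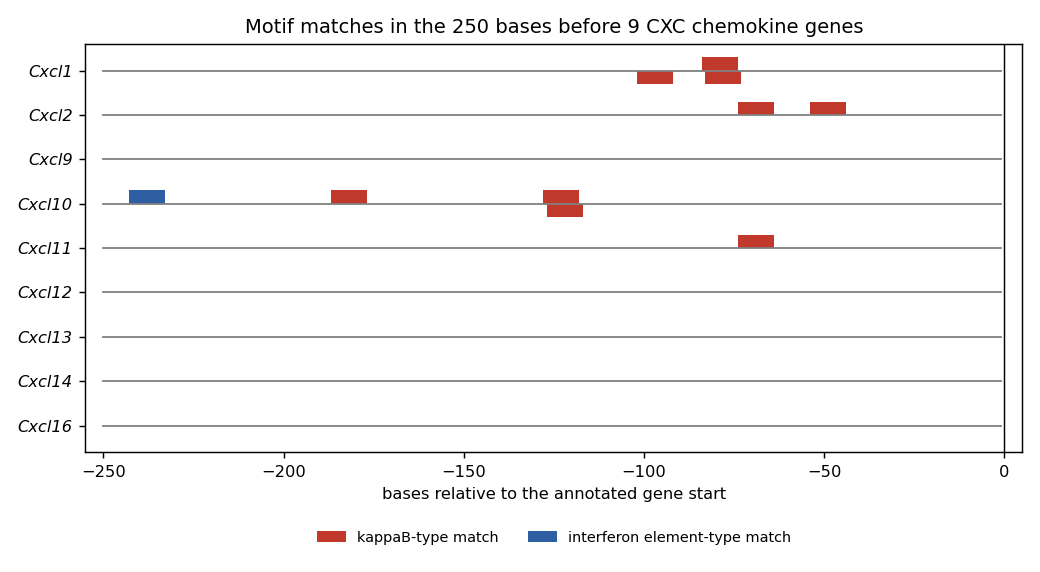
Positions of the motif matches in the 250 bases before the annotated start of 9 CXC chemokine genes, with the distance from the start in bases on the x axis and 1 gene per line. Boxes above a line are matches on the strand of the gene and boxes below it are on the opposite strand. Cxcl1, Cxcl2, Cxcl10 and Cxcl11 hold kappaB-type matches, Cxcl10 also holds the interferon element-type match, and the other 5 windows hold neither.

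Across the arrays, the median probe set intensity was 37.9 to 50.4, and 25% of all values lay below log2 4.25, called the low end here because no detection calls were used. Pearson r over probe sets was 0.976 to 0.988 between arrays of 1 day and 0.881 to 0.974 between days. Fibroblast genes were bright, with day means of log2 12.21 to 12.62 for the collagen gene Col1a1 and 12.99 to 13.18 for Col3a1. The macrophage genes Cd68, Csf1r and Adgre1 were also above the low end on every array. Levels below are log2 intensities of a probe set on each array, and since probes differ in brightness they compare days and not genes. Differences are log2 differences from limma with their SE, and a gene was called where its p adjusted over all 31042 probe sets was under 0.05.

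Of the 10 chemokines, 4 were called lower and 1 higher at day 7 than at day 2, against 3.44% and 5.50% of all probe sets. At day 21, 7 were called higher and 2 lower than at day 7, where the shares of all probe sets were 11.0% and 19.1%. Compared with day 2, 5 were called higher and 1 lower at day 21, against 6.82% and 12.2%. In either direction, 8.94%, 30.1% and 19.0% of all probe sets were called in the 3 comparisons. Counted as for the chemokines, by the brightest probe set of each of 14217 genes, the shares were larger. At day 7, 998 genes were called higher and 627 lower than at day 2. At day 21, 1954 were higher and 3469 lower than at day 7, and 1251 higher and 2176 lower than at day 2. The arrays of the compared days did not overlap for 8, 9 and 9 of the 10 chemokines, where this held for 27.0%, 42.4% and 36.5% of all probe sets. The median log2 difference of the 10 was -0.51 for day 7 minus day 2, 1.37 for day 21 minus day 7 and 0.65 for day 21 minus day 2, while the medians of all probe sets were 0.05, 0.02 and 0.03. The mean was lowest on day 7 for 7 of the 10 and highest on day 21 for 8. Of the 7, Cxcl1, Cxcl9 and Cxcl10 were not called lower at day 7 than at day 2. Of the 8, Cxcl3, Cxcl9 and Cxcl14 were not called higher at day 21 than at day 2. Cxcl2, Cxcl3, Cxcl11 and Cxcl16 were called lower at day 7 than at day 2 and higher at day 21 than at day 7, and Cxcl12 was called in the opposite direction in both. The share of all probe sets with such patterns was not counted. The comparisons of day 7 with day 2 and of day 21 with day 7 share the day 7 arrays, so a chance deviation of those arrays enters both with opposite signs. A lower level in a pool of cells can come from fewer cells of a type or from less RNA per cell, which these arrays cannot tell apart.

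**Figure D2:**
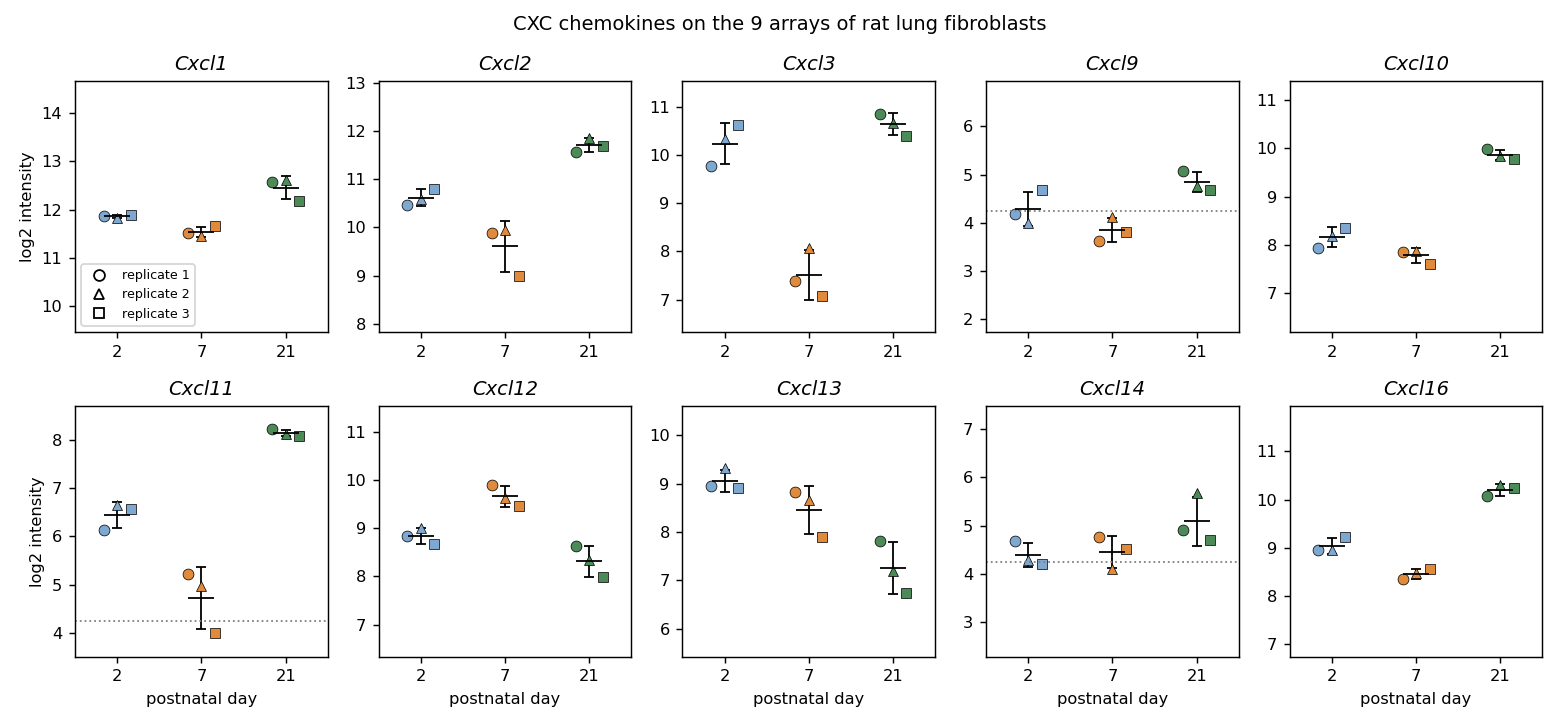
Log2 intensity of the representative probe set of each CXC chemokine (y axis, each panel spanning the same number of log2 units) against postnatal day (x axis). Symbols are the 3 arrays of a day, the horizontal mark and bar are their mean and SD, and the dotted line, in the panels it falls near, is the low end of all values at log2 4.25. Cxcl3 and Cxcl11 have their low point on day 7, Cxcl10 and Cxcl16 are highest on day 21, Cxcl12 peaks on day 7, and Cxcl9 and Cxcl14 lie near the dotted line.

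Among the neutrophil attractants, Cxcl3 fell most at day 7. It was at log2 9.76, 10.32 and 10.62 on the day 2 arrays, 7.39, 8.08 and 7.07 on the day 7 arrays and 10.84, 10.66 and 10.38 on the day 21 arrays. All day 7 arrays lay below every array of the other days, while those of days 21 and 2 overlapped. The difference was -2.72 ± 0.27 SE (6.58-fold lower, n = 3 arrays per day, limma adjusted p = 0.000516) for day 7 against day 2. For day 21 against day 7 it was 3.12 ± 0.27 (8.67-fold higher, limma adjusted p = 6.7e-06). Day 21 and day 2 differed by 0.40, with a 95% interval of -0.20 to 0.99 (limma adjusted p = 0.337). Of the 4 other probe sets of Cxcl3, 2 were called in the same directions, with differences of -2.67 and -2.57 for day 7 against day 2 and of 3.06 and 2.88 for day 21 against day 7. The remaining 2 were dimmer, between log2 3.65 and 5.96 on all arrays, and were not called in any comparison. With the mean of all 5 probe sets in place of the brightest, the differences were smaller, at -1.64 for day 7 against day 2 and 1.65 for day 21 against day 7, and both were called (limma adjusted p = 0.00118 and 0.000119).

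Cxcl2, also known as MIP-2, followed the same order of days with smaller differences. Its levels were log2 10.46, 10.59 and 10.80 on day 2, 9.89, 9.95 and 9.0 on day 7 and 11.56, 11.86 and 11.69 on day 21. No arrays of different days overlapped. It was 2.01-fold lower at day 7 than at day 2 (-1.0 ± 0.23, limma adjusted p = 0.0206), 4.26-fold higher at day 21 than at day 7 (2.09 ± 0.23, limma adjusted p = 3.71e-05) and 2.13-fold higher at day 21 than at day 2 (1.09 ± 0.23, limma adjusted p = 0.00724). The first of these did not pass when day 2 replicate 2 or day 2 replicate 3 was left out (adjusted p = 0.0631 and 0.0794).

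Cxcl1, the rat counterpart of the human GRO chemokines, varied least of the 3. The arrays gave log2 11.87, 11.82 and 11.88 on day 2, 11.51, 11.45 and 11.65 on day 7 and 12.57, 12.61 and 12.18 on day 21, again without overlap between days. It was 1.89-fold higher at day 21 than at day 7 (0.91 ± 0.16, limma adjusted p = 0.000761) and 1.51-fold higher at day 21 than at day 2 (0.60 ± 0.16, limma adjusted p = 0.0201). The call against day 2 did not hold when day 2 replicate 1 or 2 was left out (adjusted p = 0.0515 and 0.0665), or day 21 replicate 1 or 2 (0.0677 and 0.0705). Between days 7 and 2 the difference was -0.32 (95% interval -0.66 to 0.02, limma adjusted p = 0.264). Cxcl1, Cxcl2 and Cxcl3 are close relatives in sequence, and cross-hybridisation between their probes was not tested.

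Of the interferon-induced ligands, Cxcl11 had the widest swing between days 7 and 21 of all 10 chemokines. It was at log2 6.14, 6.64 and 6.57 on day 2, 5.22, 4.97 and 4.00 on day 7 and 8.21, 8.13 and 8.08 on day 21. The days did not overlap, and day 7 replicate 3 lay below the low end, so its folds against day 7 are open to background. The difference was -1.72 ± 0.27 (3.30-fold lower, limma adjusted p = 0.00343) for day 7 against day 2, 3.41 ± 0.27 (10.6-fold higher, limma adjusted p = 3.38e-06) for day 21 against day 7 and 1.69 ± 0.27 (3.23-fold higher, limma adjusted p = 0.00129) for day 21 against day 2. Leaving out day 7 replicate 3 gave no loss of these calls. On the scale of log2 of the value plus 16, which damps dim values, the difference of day 21 against day 7 was 2.79 and still called.

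Cxcl10, also called IP-10, showed mainly the later rise. It lay at log2 7.94, 8.19 and 8.36 on day 2, 7.86, 7.88 and 7.61 on day 7 and 9.98, 9.85 and 9.77 on day 21. All day 21 arrays were more than 1 log2 unit above every earlier array. Cxcl10 was 4.24-fold higher at day 21 than at day 7 (2.08 ± 0.16, limma adjusted p = 2.72e-06) and 3.26-fold higher at day 21 than at day 2 (1.70 ± 0.16, limma adjusted p = 3.5e-05). The day 7 arrays were below the day 2 arrays without overlap, by -0.38 (95% interval -0.73 to -0.03), which did not pass after adjustment (limma adjusted p = 0.185).

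Cxcl9, or MIG, was dim throughout, with 5 of the 9 arrays below the low end. Its levels were log2 4.17, 4.00 and 4.67 on day 2, 3.62, 4.11 and 3.81 on day 7 and 5.08, 4.76 and 4.69 on day 21. It was called higher at day 21 than at day 7 (1.00 ± 0.21, limma adjusted p = 0.0028), as was its second, dimmer probe set (0.68 ± 0.15, limma adjusted p = 0.00453). Against day 2, the day 21 difference was 0.56 ± 0.21 (limma adjusted p = 0.0795) for the brighter probe set, which was called without day 2 replicate 3 (adjusted p = 0.0256). The dimmer one, below the low end on 7 arrays, was called (0.57 ± 0.15, limma adjusted p = 0.0215).

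Cxcl12, or SDF-1, the ligand that mesenchymal cells make without induction, had the reverse profile. Its brightest probe set was at log2 8.85, 9.0 and 8.66 on day 2, 9.89, 9.63 and 9.45 on day 7 and 8.63, 8.33 and 7.99 on day 21. Every day 7 array was above every array of the other days. The difference was 0.82 ± 0.19 (1.76-fold higher, limma adjusted p = 0.0221) for day 7 against day 2 and -1.34 ± 0.19 (2.53-fold lower, limma adjusted p = 0.000229) for day 21 against day 7. Between days 21 and 2 it was -0.52 ± 0.19 and not called (limma adjusted p = 0.0813), though it was called without day 21 replicate 1 (adjusted p = 0.0433).

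The rise of Cxcl12 at day 7 was the less firm of its changes. It did not pass when day 2 replicate 1 or 3 was left out (adjusted p = 0.0534 and 0.0833), or day 7 replicate 1 or 2 (0.0871 and 0.0624), and lay at an adjusted p of 0.050 when arrays were centred on their median. Its 2 other probe sets differed from each other. One of them lay at log2 5.75 to 6.10 on day 2, 6.43 to 6.74 on day 7 and 4.57 to 5.07 on day 21, and was called lower at day 21 than at day 7 (-1.74 ± 0.18, limma adjusted p = 1.82e-05) and than at day 2 (-1.15 ± 0.18, limma adjusted p = 0.00101). Its difference between days 7 and 2 was 0.60 ± 0.18 (limma adjusted p = 0.0573). The other, at log2 6.47 to 7.22, was not called in any comparison.

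Cxcl13, the B cell attractant, had its lowest levels on day 21. The values were log2 8.95, 9.32 and 8.91 on day 2, 8.82, 8.67 and 7.89 on day 7 and 7.81, 7.20 and 6.74 on day 21. No arrays of different days overlapped, but day 7 replicate 3 was within 0.1 of day 21 replicate 1. Cxcl13 was 2.32-fold lower at day 21 than at day 7 (-1.21 ± 0.29, limma adjusted p = 0.00701) and 3.51-fold lower at day 21 than at day 2 (-1.81 ± 0.29, limma adjusted p = 0.00132). For day 7 against day 2 the difference was -0.60 ± 0.29 (limma adjusted p = 0.262).

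Cxcl16, the transmembrane ligand, was at log2 8.95, 8.94 and 9.22 on day 2, 8.36, 8.47 and 8.56 on day 7 and 10.07, 10.31 and 10.24 on day 21. The days did not overlap, and replicates lay within 0.3 of each other. It was 3.34-fold higher at day 21 than at day 7 (1.74 ± 0.15, limma adjusted p = 6.03e-06) and 2.24-fold higher at day 21 than at day 2 (1.17 ± 0.15, limma adjusted p = 0.000307). The fall at day 7 was 1.49-fold (-0.58 ± 0.15, limma adjusted p = 0.0348). That call was lost without any 1 of the 6 arrays of days 2 and 7, at adjusted p-values of 0.0514 to 0.123, and with arrays centred on their median (adjusted p = 0.0543).

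Cxcl14, a chemokine of epithelial and stromal cells whose receptor is debated, was the only member with no call. It was dim, at log2 4.68, 4.30 and 4.20 on day 2, 4.76, 4.10 and 4.51 on day 7 and 4.90, 5.67 and 4.71 on day 21. Day 21 replicate 2 stood 0.77 above the next highest array. The differences were 0.06 ± 0.26 for day 7 against day 2, 0.64 ± 0.26 (limma adjusted p = 0.0854) for day 21 against day 7 and 0.70 ± 0.26 (limma adjusted p = 0.0794) for day 21 against day 2. The second of these passed without day 21 replicate 3 (adjusted p = 0.0435). Both day 21 differences passed with arrays centred on their median (adjusted p = 0.0202 and 0.0396).

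**Figure D3:**
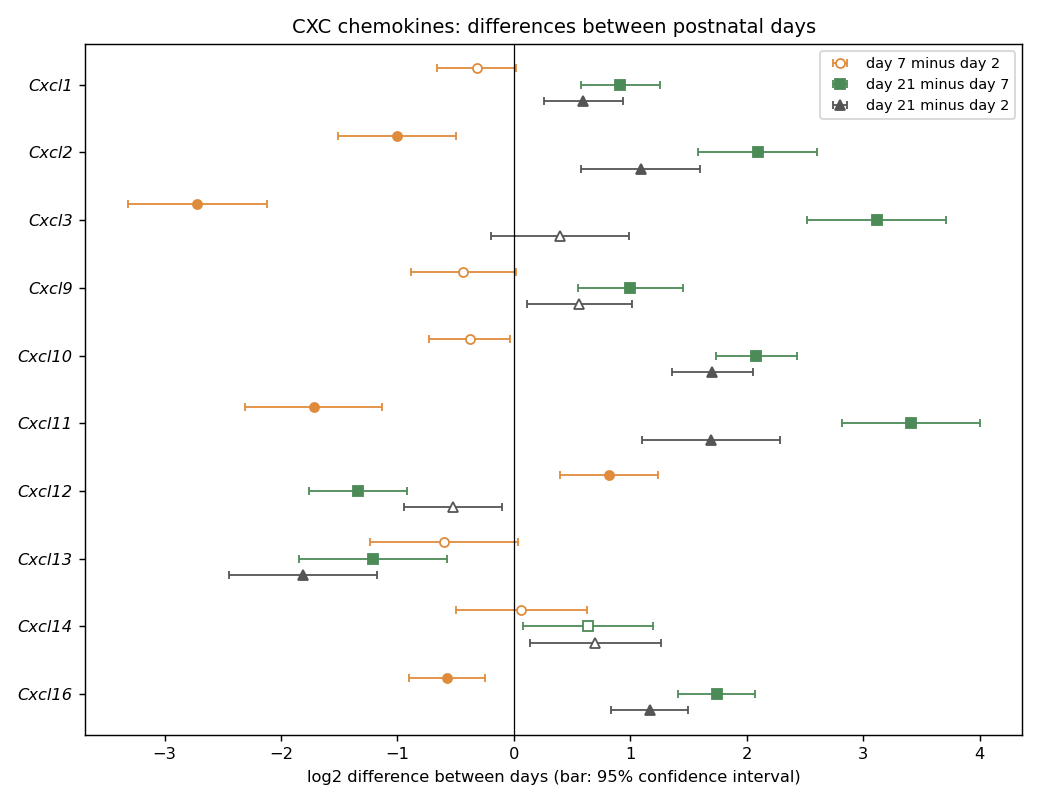
Log2 difference between postnatal days (x axis) for the representative probe set of each CXC chemokine (y axis), with limma 95% confidence intervals from 3 arrays per day. Filled symbols passed an adjusted p of 0.05 and open symbols did not. Cxcl3 and Cxcl11 moved most in both directions, Cxcl12 moved opposite to them, Cxcl13 lay below 0 in all 3 comparisons, and Cxcl14 has open symbols only.

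Of the 7 measured receptors for these ligands, Cxcr1 and Cxcr4 were called, both higher at day 21 than on each earlier day. Of all probe sets, 11.0% were called higher at day 21 than at day 7, and 6.82% higher than at day 2. Calls in either direction made up 30.1% and 19.0% of all probe sets in these comparisons. By limma none of the 7 was called between days 7 and 2, where 8.94% of all probe sets were. At an unadjusted p under 0.05, 1 (Ackr3) was higher there and none lower. Cxcr4, the receptor of CXCL12, lay at log2 8.07, 8.41 and 8.39 on day 2, 8.52, 8.56 and 7.87 on day 7 and 9.75, 10.16 and 10.37 on day 21. The receptor was highest on the day on which the brightest probe set of its ligand was lowest. Cxcr4 was 3.43-fold higher at day 21 than at day 7 (1.78 ± 0.22, limma adjusted p = 8.2e-05) and 3.50-fold higher at day 21 than at day 2 (1.81 ± 0.22, limma adjusted p = 0.000224). Both other Cxcr4 probe sets were also higher on every day 21 array than on any earlier array.

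Cxcr1, a receptor for neutrophil-attracting ligands, was at log2 6.49, 6.18 and 5.84 on day 2, 5.92, 6.0 and 4.66 on day 7 and 7.89, 7.44 and 8.97 on day 21. It was 5.95-fold higher at day 21 than at day 7 (2.57 ± 0.40, limma adjusted p = 0.000427) and 3.81-fold higher at day 21 than at day 2 (1.93 ± 0.40, limma adjusted p = 0.00634). Cxcr2, the main receptor of these ligands, was below the low end on all 9 arrays. Cxcr3, the receptor of Cxcl9, Cxcl10 and Cxcl11, lay at log2 4.35 to 5.16 over all arrays and differed by 0.19 ± 0.24 between days 7 and 2 and by 0.01 ± 0.24 between days 21 and 7. Ackr3, the scavenger of CXCL12, was at log2 9.58 to 9.73 on day 2, 9.90 to 10.32 on day 7 and 9.68 to 10.15 on day 21. Its difference of 0.48 ± 0.17 for day 7 against day 2 did not pass (limma adjusted p = 0.116). Cxcr5, the receptor of CXCL13, had day means of log2 6.60 to 6.95, and Ackr1, which binds many inflammatory chemokines, had day means of log2 3.96 to 4.45. Neither was called.

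Of 3 further CXC ligands on the array, Cxcl6, another neutrophil attractant, and Pf4, the platelet factor, were called higher at day 21. Ppbp was not called. The shares of all probe sets called higher at day 21 were 11.0% against day 7 and 6.82% against day 2. Cxcl6 was at log2 4.79, 4.89 and 4.87 on day 2, 4.47, 4.58 and 3.83 on day 7 and 6.88, 6.68 and 6.22 on day 21. It was 4.93-fold higher at day 21 than at day 7 (2.30 ± 0.22, limma adjusted p = 1.28e-05). Its day 7 mean of log2 4.29 lay at the low end, with day 7 replicate 3 below it, and the difference was 1.66 with log2 of the value plus 16. Pf4 was 3.54-fold higher in the same comparison (1.82 ± 0.25, limma adjusted p = 0.000142). Against day 2, the day 21 differences were 1.74 ± 0.22 for Cxcl6 and 1.19 ± 0.25 for Pf4 (limma adjusted p = 0.000276 and 0.00594).

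**Figure D4:**
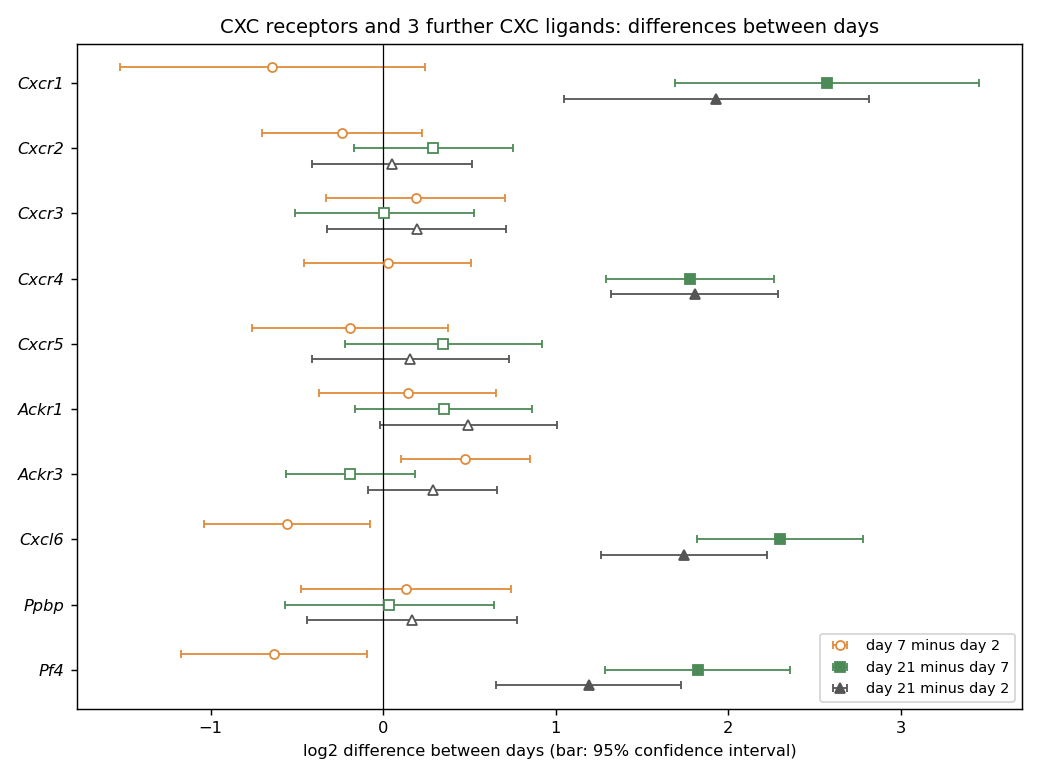
Log2 difference between postnatal days (x axis) for 7 CXC chemokine receptors and 3 further CXC ligands (y axis), with limma 95% confidence intervals from 3 arrays per day. Filled symbols passed an adjusted p of 0.05. Cxcr1, Cxcr4, Cxcl6 and Pf4 were higher at day 21 than on both earlier days, and no symbol for day 7 minus day 2 is filled.

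Signalling genes upstream of the inducible chemokines were described by list. Of 18 measured genes of interleukin 1, TNF and toll-like receptor signalling to NF-kappaB, 5 fell and 13 did not pass at day 7 against day 2 (median log2 difference -0.55, all probe sets 0.05), where 3.44% of all probe sets were lower. At day 21 against day 7, 11 rose, 1 fell and 6 did not pass (median 0.65, all probe sets 0.02), against 11.0% of all probe sets higher and 19.1% lower. At day 21 against day 2, 3 rose and 2 fell (median 0.40), against 6.82% and 12.2%. Il1rn, the interleukin 1 receptor antagonist, had day means of log2 9.90, 6.08 and 9.51 on days 2, 7 and 21, and Cd14, a co-receptor for bacterial lipopolysaccharide, had 11.79, 9.72 and 11.58. Both had their low point on day 7, as did Il1a, a ligand of the interleukin 1 receptor, at 10.63, 9.25 and 10.42, and Tlr2, a receptor for bacterial lipoproteins, at 9.01, 7.85 and 9.90. Without day 7 replicate 3, the difference of Il1rn was -3.19 in place of -3.82 for day 7 against day 2 and 2.79 in place of 3.42 for day 21 against day 7. Nfkb2, an NF-kappaB subunit, was higher at day 21 than at day 7 by 1.68 ± 0.28 (limma adjusted p = 0.000636). The receptors Il1r1 and Tlr4 were the 2 that were lower at day 21 than at day 2, by -1.33 ± 0.25 (limma adjusted p = 0.00353) and -1.15 ± 0.20 (limma adjusted p = 0.00196). Tlr2 was higher in that comparison by 0.90 ± 0.21 (limma adjusted p = 0.0125), which did not pass when day 2 replicate 1 was left out (adjusted p = 0.0513). Nfkb1, another NF-kappaB subunit, was higher by 0.64 ± 0.19 (limma adjusted p = 0.0368). This call did not hold when day 2 replicate 1 or 2 was left out (adjusted p = 0.115 and 0.124), or day 21 replicate 1 or 2 (0.0943 and 0.116).

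Of 17 measured genes of interferon signalling, 4 fell at day 7 against day 2 (median -0.31), 7 rose at day 21 against day 7 (median 0.42) and 6 rose at day 21 against day 2 (median 0.24), with no call in the other direction. The shares of all probe sets in these directions were 3.44%, 11.0% and 6.82%. Irf7, a transcription factor of the interferon response, had day means of log2 7.06, 6.02 and 8.54 on days 2, 7 and 21, and Gbp2, an interferon-induced GTPase, had 8.90, 7.70 and 9.67. Irf8, a factor of myeloid cells, was higher at day 21 than at day 7 by 1.49 ± 0.16 (limma adjusted p = 2.51e-05). Irf9, a partner of the STAT proteins, had day means of log2 7.21, 6.47 and 7.54. Socs1, an inhibitor of cytokine signalling, was higher at day 21 than at day 2 by 0.80 ± 0.16 (limma adjusted p = 0.00474), but by 0.34 over the mean of its probe sets (adjusted p = 0.106). Ifnar2, a chain of the type I interferon receptor, was lower at day 7 than at day 2 by -0.62 ± 0.17 (limma adjusted p = 0.0466). That call did not hold when any 1 of the 6 arrays of days 2 and 7 was left out (adjusted p = 0.0764 to 0.169), or day 21 replicate 2 (0.0639). Ifng, the gene of interferon gamma, was below the low end on all 9 arrays. Of 6 proteases known to shed or cleave CXC chemokines, 1 was called. Of all probe sets, 8.94% were called at day 7 against day 2 and 30.1% at day 21 against day 7. Mmp9 was lower at day 7 than at day 2 (-0.85 ± 0.18, limma adjusted p = 0.0148), which did not pass when day 2 replicate 2 was left out (adjusted p = 0.0664). It was higher at day 21 than at day 7 (0.66 ± 0.18, limma adjusted p = 0.0172), which did not pass when day 7 replicate 3 or day 21 replicate 2 was left out (adjusted p = 0.0551 and 0.0722) or with log2 of the value plus 16 (0.308, adjusted p = 0.0523). On 7 of the 9 arrays Mmp9 was below the low end. Adam10 and Adam17, which shed CXCL16, were not called in any comparison.

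Macrophage markers moved with the chemokines that had their low point on day 7. Of 17 measured markers, 10 were lower and none higher at day 7 than at day 2, 16 were higher at day 21 than at day 7, and 5 were higher at day 21 than at day 2. Among all probe sets, 3.44% were lower at day 7 than at day 2, and 11.0% and 6.82% were higher in the other 2 comparisons. The list averaged log2 8.64 to 8.88 on day 2, 7.12 to 7.95 on day 7 and 9.20 to 9.64 on day 21. Summed over the list, intensity was 15798 to 18029 on day 2, 6831 to 10714 on day 7 and 20749 to 28533 on day 21. None of the 17 was below the low end on all arrays. Of 5 neutrophil markers, 3 were lower and none higher at day 7 than at day 2. At day 21, 3 were higher and none lower than at day 7. Against day 2, 1 (Mmp8) was higher at day 21 and 2 (S100a8 and S100a9) were lower, where 12.2% of all probe sets were lower. Summed intensities of the neutrophil list were 1201 to 3472 on day 2, 163 to 346 on day 7 and 314 to 862 on day 21. Of 13 T and NK cell markers, 1 (Il7r, a cytokine receptor chain) was lower at day 7 than at day 2 and 12 did not pass (median 0.02). At day 21, 5 were higher than at day 7 and 5 higher than at day 2. Their mean log2 level was 4.56 to 4.90, 4.44 to 4.86 and 5.15 to 5.47 on days 2, 7 and 21. The summed intensity was 977 to 1141, 344 to 537 and 1471 to 1871, of which Il7r alone had 769, 99.5 and 1227 as geometric means, while the defining markers Cd3d and Cd3e were below the low end on all 9 arrays. Of 9 endothelial markers, 2 were higher at day 7 than at day 2 and 7 lower at day 21 than at day 7, the directions of Cxcl12, with summed intensities of 736 to 1024, 1146 to 1385 and 519 to 700 on days 2, 7 and 21. The shares of all probe sets were 5.50% higher and 19.1% lower. Of these markers, Vwf had its highest day mean on day 21 instead (log2 5.07, 5.67 and 6.15). The pericyte list was also highest on day 7, averaging log2 5.88 to 5.97, 6.31 to 6.37 and 5.72 to 5.96 on the 3 days. None of its 6 markers was called at day 7 against day 2, and 4 were lower and 1 higher at day 21 than at day 7. Among 11 fibroblast markers, whose mean log2 level was 10.34 to 10.69, 10.56 to 10.63 and 9.84 to 10.27 on the 3 days, none was called at day 7 against day 2 by limma, and 1 was higher with none lower before adjustment (p under 0.05). In the comparison of day 21 with day 7, 1 of them rose and 4 fell, against 11.0% and 19.1% of all probe sets. Of the 4 that fell, Pdgfra, Tcf21 and Fn1 had their highest day mean on day 7, as Cxcl12 did, and Fbln1 on day 2. The part of these cell types in the chemokine results was not tested.

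**Figure D5:**
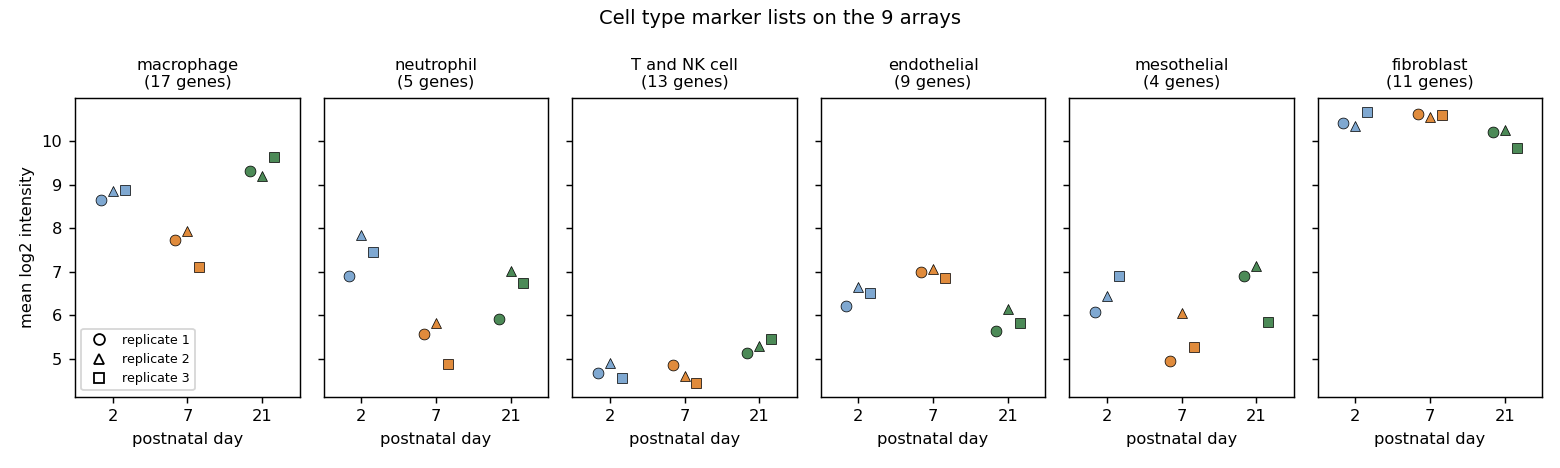
Mean log2 intensity of 6 cell type marker lists (y axis, shared by the panels) on the 3 arrays of postnatal days 2, 7 and 21 (x axis), 1 symbol per array. The macrophage list is lowest on the day 7 arrays, at 7.12 to 7.95, and highest on the day 21 arrays, at 9.20 to 9.64, while the endothelial list is highest on day 7.

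When the mean of the macrophage list entered the model as a covariate, limma called 0 of the 10 chemokines in either direction between days 7 and 2 (0 higher and 2 lower before adjustment, at p under 0.05). It also called 0 between days 21 and 7 (4 higher and 1 lower before adjustment, at p under 0.05). Nearly all calls over all probe sets were lost as well. With the covariate, 0 probe sets were called higher and 0 lower between days 7 and 2. Between days 21 and 7 these counts were 2 and 9. Between days 21 and 2 they were 445 and 994, against 2118 and 3773 without the covariate. The macrophage levels of the 3 days do not overlap, so this covariate and the day can hardly be told apart. The day 21 against day 7 differences under the covariate were 1.87 for Cxcl16 (1.74 without it), 1.62 for Cxcl1 (0.91) and 1.96 for Cxcl14 (0.64). They were -1.37 for Cxcl12 (-1.34) and -2.12 for Cxcl13 (-1.21). Smaller differences than without the covariate were those of Cxcl2, at 0.46 (2.09), Cxcl3, at 1.62 (3.12), and Cxcl11, at 1.46 (3.41). Cxcl10, at 1.54 (2.08), and Cxcl9, at 0.72 (0.998), were also smaller. For day 21 against day 2, 3 remained called higher, Cxcl1 (0.83, limma adjusted p = 0.0454), Cxcl10 (1.52, limma adjusted p = 0.00383) and Cxcl16 (1.21, limma adjusted p = 0.0114). Cxcl13 remained called lower in that comparison (-2.11, limma adjusted p = 0.0189), and Cxcl2 and Cxcl11 were no longer called (adjusted p = 0.305 and 0.077).

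Within a day, the ranks of the chemokines on an array can be set beside its macrophage level. Day 7 replicate 3 had the lowest macrophage mean of its day, 7.12 against 7.73 and 7.95, and 6 of the 10 chemokines were lowest there (Cxcl2, Cxcl3, Cxcl10, Cxcl11, Cxcl12 and Cxcl13). It was also the dimmest array of its day, with a median log2 of 5.28 against 5.66 and 5.55, and the neutrophil, T and NK cell, endothelial and alveolar epithelial lists had their lowest mean of the day there. Cxcl1 and Cxcl16 were highest of their day on that array. On day 21, replicate 3 had the highest macrophage mean, 9.64 against 9.33 and 9.20. There 8 of the 10 chemokines were lowest of their day, with Cxcl2 and Cxcl16 as the exceptions. The fibroblast list also had its lowest mean of the day there, 9.84 against 10.22 and 10.27. So did the pericyte, mesothelial and alveolar epithelial lists, while the T and NK cell and B cell lists had their highest. These ranks describe single arrays and were not tested, and the share of all genes lowest on an array was not counted.

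Across the 9 arrays, Cxcl2 and Cxcl11 were the most alike pair of chemokines (Pearson r = 0.989), followed by Cxcl10 and Cxcl16 (0.968). Cxcl12 ran against Cxcl16 (-0.921) and Cxcl11 (-0.867), and Cxcl13 ran against Cxcl16 (-0.747) and Cxcl10 (-0.743). These coefficients describe 9 arrays that fall into 3 days, so differences between days and between arrays of a day enter each of them. Among 6381 other genes that varied by at least 1 log2 unit, those most like Cxcl2 were Cd300a (r = 0.997), Sephs2, Inpp5d and Fermt3. Those most like Cxcl10 were Lmo2 (0.993), Il2rg, Pi16 and Mylip. For Cxcl12 they were Hoxb3 (0.979), Clec14a, Ldlrad3 and Tshz1, and for Cxcl14 they were Lin52 (0.933), Atp8b1, Scin and Ddit4l. Inpp5d and Fermt3 are genes of blood cells, and Clec14a is an endothelial gene. Clec14a was dim, with day means of log2 3.77, 4.62 and 3.06 on days 2, 7 and 21, near or below the low end. The other genes named as alike were not assigned to a cell type here.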

How the data were processed

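Per the submitters' processing notes, the deposited values were made with RMA in the affy package. They are linear probe set intensity values, and versions, probe set definitions and filters are not stated in the labels. RMA adjusts background and array distributions. The medians of the deposited arrays were not equal, so any later scaling is unknown, and the alternatives with another scaling bear on this. Log2 of these deposited intensities was taken here. Of 31099 probe sets, 57 AFFX controls were left out. In the platform annotation 20826 probe sets had 1 gene symbol and 436 had several, which were not named. All 18 chemokine probe sets kept their symbol in the RefSeq gene table by Entrez number. No 2 of the 9 arrays held identical values.

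Tests used limma 3.58.1 in R 4.3.3 (all 9 arrays in 1 fit with a mean for each day; residual degrees of freedom 6, prior 5.69; two-sided, with Benjamini-Hochberg adjustment over 31042 probe sets). Intervals are limma's 95% intervals. The p-values measure the spread between litters, and 3 arrays per day limit the precision. The fit was tested on simulated data with 50 changed probe sets of each size for day 7 against day 2. It called 4% of those with a log2 change of 0.5, 72% at 1 and 100% at 2 and 3, with 4 false calls. The simulated data held fewer changed probe sets than were called in the real data, which affects the adjusted p. A difference that was not called is therefore no evidence of an unchanged level.

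The labels number litters 1 to 3 on each day without saying that a number is 1 litter throughout. Between days 2 and 7, deviations of same-numbered arrays correlated at 0.405, 0.077 and 0.223, above the -0.285 to 0.059 of other-numbered arrays. Between day 21 and the earlier days, same-numbered arrays gave -0.237 to 0.051 and other-numbered arrays -0.225 to 0.237. Whether litters were shared stays unsettled, so arrays were not paired in the main fit. Alternatives were a further quantile normalization, centring on the median, log2 of the value plus 16, a filter on the dimmest 25% of probe sets, a litter block, a trended and robust prior, the mean of a gene's probe sets, the macrophage covariate and leaving out each array. The chemokines, lists and tests were chosen with earlier results of these data known, and the motifs after the promoters were seen. All 10 chemokines and all measured receptors are named, up to 4 called members with the largest difference in a comparison from each pathway list, and the 4 most correlated genes for Cxcl2, Cxcl10, Cxcl12 and Cxcl14. Ifng, Adam10 and Adam17 were added with their values known. Marker lists of B cells, pericytes, alveolar epithelium and mesothelium were also computed, with 3, 6, 10 and 4 genes measured. In the order day 7 against 2, day 21 against 7 and day 21 against 2, B cell markers had 0, 0 and 1 called higher and none lower. Pericyte markers had 0, 1 and 1 higher and 0, 4 and 2 lower, alveolar epithelial markers 0, 4 and 1 higher and 0, 1 and 0 lower, and mesothelial markers 0, 1 and 0 higher and 1, 0 and 0 lower. Of all probe sets, 5.50%, 11.0% and 6.82% were called higher in these comparisons and 3.44%, 19.1% and 12.2% lower.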

Additional observations from a re-analysis of the deposited data

How the results depend on the processing

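Of 20 calls among the 30 chemokine comparisons, 16 held under all 16 alternatives other than the macrophage covariate, and 4 were lost under at least 1 of them (Cxcl2, Cxcl12 and Cxcl16 for day 7 against day 2 and Cxcl1 for day 21 against day 2). Leaving out 1 array gave 0 to 1 chemokines higher and 2 to 4 lower for day 7 against day 2, 7 to 8 higher and 2 lower for day 21 against day 7, and 4 to 6 higher and 1 to 2 lower for day 21 against day 2. Over all probe sets the same omissions gave 850 to 1814 higher and 673 to 1155 lower, against 1707 and 1068, for day 7 against day 2. They gave 1186 to 2565 higher, against 2118, and 2617 to 3990 lower, against 3773, for day 21 against day 2. With arrays centred on their median, 0 chemokines and 902 probe sets were higher at day 7 than at day 2, and 41.5% of all calls were higher against 61.5%. In day 21 against day 7, calls that were higher made up 48.0% with centring and 48.5% after quantile normalization, against 36.6%, and centring put the median of all probe sets at 0.13 in place of 0.02. Quantile normalization gave 3397 probe sets higher for day 21 against day 2, 47.3% of calls against 36.0%. The litter number as a replicate block, and the mean of a gene's probe sets, each gave 2 chemokines lower at day 21 than at day 2, where Cxcl12 was added (adjusted p = 0.0475 with the block). The block changed no other chemokine call, and Ifnar2 and Nfkb1 lost theirs (adjusted p = 0.0615 and 0.0511).

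With the macrophage covariate limma called 0 probe sets higher and 0 lower for day 7 against day 2 (1964 and 1430 at an unadjusted p under 0.05), 2 higher and 9 lower for day 21 against day 7, and 445 higher and 994 lower for day 21 against day 2. The chemokine counts were 0 and 0, 0 and 0, and 3 and 1. Under this covariate the difference of day 7 against day 2 changed sign for Cxcl2 (0.0797), Cxcl13 (0.0059) and Cxcl14 (-0.81), that of day 21 against day 2 for Cxcl3 (-0.10), and that of day 21 against day 7 for Cxcr1 (-0.67) and Il1rn (-0.75). The difference of Cxcl14 for day 7 against day 2, which was not called, also turned negative with centring (-0.0331) and without day 2 replicate 3 (-0.0334) or day 7 replicate 1 (-0.0875), and omissions put it between -0.0875 and 0.2413. Of 34 calls of named receptors, ligands and signalling genes, 28 held under all alternatives other than the covariate, and 6 did not (Mmp9 in 2 comparisons, and Ifnar2, Tlr2, Nfkb1 and Socs1 in 1 each). The cause of these changes was not tested, and omissions also leave fewer arrays. Brightness near the low end limits Cxcl9 and Cxcl14.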
